A study of Mus musculus with 2 samples.

Results

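The genes of actin monomer supply and filament turnover described here are Actb, Actg1, Tmsb4x, Tmsb10, Pfn1, Pfn2, Cfl1, Cfl2, Dstn and Cap1. They were chosen by name, and each was found by its gene ID, giving 10 of the 43346 gene rows in the tables. The RNA came from the forebrain of B6NCrl mouse embryos of both sexes at embryonic day 11.5, with no genetic change or treatment named in the labels. Replicate 1 was a pool of 109 embryos and replicate 2 a separate pool of 88 embryos. Each library was made by a SmartSeq protocol from an amount of total RNA equal to 1 cell, so each is 1 bulk sample of a pool, although its title calls the assay single cell. There is one group of 2 libraries, so no p-value is given, and a difference between the libraries has no replicate within a pool.

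Actin cycles between single molecules and filaments, and the length and turnover of the filaments shape the cell cortex, the growth cone and the cleavage furrow. Beta-thymosins hold actin monomers in reserve, and profilins pass monomers to growing filament ends. Cofilins and destrin sever old filaments and free their monomers, and cyclase-associated proteins help to recharge those monomers for another round. In the embryonic forebrain this cycle is known for its part in apical junctions of dividing progenitors and in the migration and axon growth of young neurons.

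The libraries held 27395002 and 27977544 expected counts on genes, and the ERCC spike-in RNAs held 8.44% and 6.56% of the TPM. TPM is an abundance per length, scaled to the same total in each library, and as deposited that total includes the spike-ins. An SD with n = 2 is the spread between these libraries. With 1 library per pool, it cannot separate a difference of the pools from one that arose in making the libraries. A gene was taken as detected from 1 TPM upwards. By that measure 5 of 6 telencephalic markers were detected in both libraries, and their summed TPM was 338 and 267. All 6 midbrain and hindbrain markers, En1 and Hoxb2 among them, had 0 counts in both libraries, which by counting error alone allows up to 0.110 and 0.107 CPM. Values below are given as replicate 1 and then replicate 2.

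The thymosins are the shortest of these genes and their coding sequences, from GENCODE M21 transcripts, can be shown whole. Both have 135 coding bases including the stop codon, of which 95 are the same, an identity of 70.4%. The pair is shown because Tmsb4x and Tmsb10 are the next most abundant after Actb among the 10 genes and both bind actin monomers. Capitals mark the bases at which one differs from the other.
Tmsb4x: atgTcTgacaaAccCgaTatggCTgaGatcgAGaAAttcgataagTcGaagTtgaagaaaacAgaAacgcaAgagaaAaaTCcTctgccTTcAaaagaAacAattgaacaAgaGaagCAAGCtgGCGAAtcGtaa
Tmsb10: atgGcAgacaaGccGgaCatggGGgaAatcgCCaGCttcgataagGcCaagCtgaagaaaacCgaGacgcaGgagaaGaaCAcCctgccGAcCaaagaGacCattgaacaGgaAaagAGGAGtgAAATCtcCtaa

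The 10 genes were all detected in both libraries, against 30.4% of 21474 protein-coding genes. Their expected counts made up 1.77% (95% Clopper-Pearson interval 1.77 to 1.78) and 1.71% (1.71 to 1.72) of all gene counts. In TPM they summed to 18366 and 18899. Actins and thymosins held most of this sum, followed by cofilins with destrin and by profilins, and Cap1 held under 1%. The order of the genes by mean level was Actb, Tmsb4x, Tmsb10, Cfl1, Actg1, Pfn1, Pfn2, Dstn, Cfl2 and Cap1. For 6 of the 9 neighbouring pairs in that order, the lower of the higher gene's 2 values lay above the higher of the other gene's. The ranges over the libraries overlapped for the other 3, Actb with Tmsb4x, Cfl1 with Actg1, and Pfn2 with Dstn, although Pfn2 was above Dstn within each library.

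**Figure D1:**
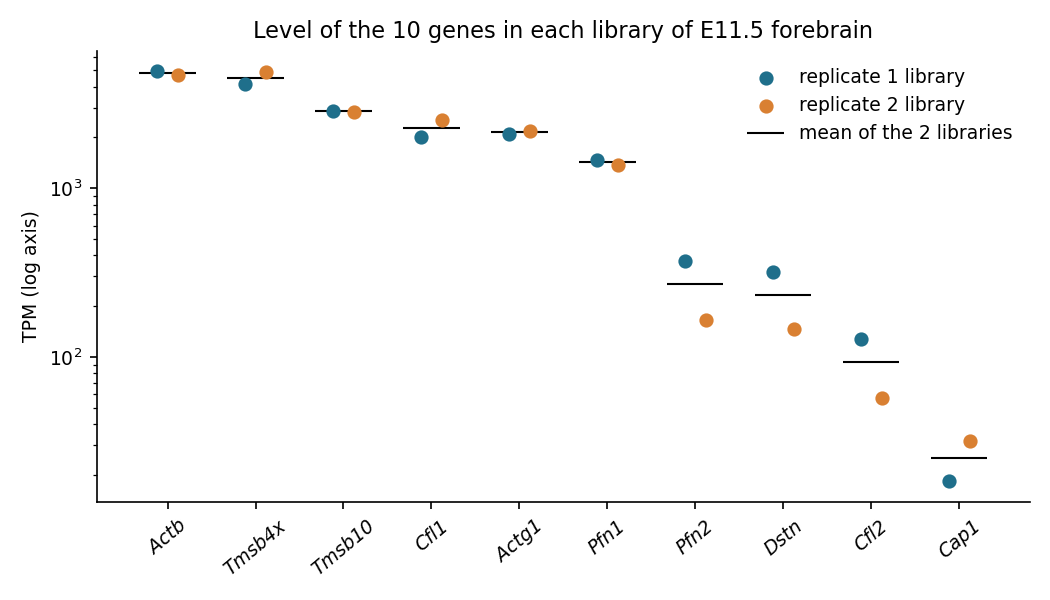
TPM on a log axis of the 10 genes in the replicate 1 and replicate 2 libraries (points), with the mean of the 2 libraries (lines). The 6 genes above 1000 TPM have points close together, and Pfn2, Dstn and Cfl2 are higher in replicate 1 while Cap1 is higher in replicate 2.

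Actin itself came from the cytoplasmic isoforms. Actb, which encodes beta-actin (ENSMUSG00000029580.10, chromosome 5, 142903115 to 142906754 on mm10, minus strand), was at 4929 and 4705 TPM from 199923 and 189493 expected counts. Its mean of 4817 ± 159 TPM (SD, n = 2) was the highest of the 10 genes, and among protein-coding genes it was number 9 in replicate 1 and number 10 in replicate 2. Actg1, which encodes gamma-actin (chromosome 11, 120345690 to 120348542, minus strand), was at 2086 and 2196 TPM, or 2141 ± 77.2 (SD, n = 2). The libraries lay within 4% of the mean for both genes when the SD is taken as a share of the mean, at 3.29% for Actb and 3.61% for Actg1. Actb was above Actg1 by 2.36 and 2.14 times within the libraries, a ratio that does not depend on how a library is scaled. Their 1128 coding bases are 88.7% identical, with no gaps.

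The muscle actins were at or near 0, with 1 exception. Acta1 of skeletal muscle had 6 and 11 counts, Actc1 of cardiac muscle 6 and 4, and Actg2 of smooth muscle 2 and 1, each under 1 TPM in both libraries. Acta2, the vascular smooth muscle actin, was at 0.53 and 21.4 TPM from 20 and 800 counts, so it was detected in replicate 2 alone. The 5 smooth muscle markers, Acta2 among them, summed to 57.9 and 53.1 TPM. Tagln supplied most of that sum in each library, at 57.2 and 31.6 TPM, and Cnn1 and Myh11 had 0 counts in both. Acta2 and Tagln therefore leaned to different libraries. All 6 striated muscle markers were under 1 TPM in both libraries, with a summed level of 0.58 and 0.79 TPM.

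The beta-thymosins matched the actins in level. Tmsb4x (chromosome X, 167207093 to 167209315, minus strand) was at 4152 and 4850 TPM from 62179 and 71843 counts, or 4501 ± 494 (SD, n = 2). Tmsb10 (chromosome 6, 72957347 to 72958748, minus strand) was at 2866 and 2828 TPM from 30201 and 29560 counts, or 2847 ± 26.6, and its SD was 0.934% of the mean, the smallest such share of the 10 genes. Tmsb4x was higher in replicate 2 and Tmsb10 hardly differed, so the ratio of Tmsb4x to Tmsb10 was 1.45 and 1.71. Summed thymosin TPM over summed actin TPM was 1.00 and 1.11, or 1.06 ± 0.0795 (SD, n = 2). These are ratios of RNA and say nothing of protein. Tmsb4x is also abundant in blood and immune cells, as background, and the 7 erythroid markers summed to 31166 and 37330 TPM, with 6 detected in both libraries. Of the 6 myeloid and lymphoid markers 3 were detected in both, Ptprc had 0 counts in both, and their sum was 92.8 and 123 TPM. Their members did not move together, since Coro1a had 0.15 and 64.8 TPM and Lcp1 had 11.1 and 32.15 TPM, while Csf1r had 15.7 and 2.86 TPM and Fcer1g had 65.8 and 23.3 TPM. Of the erythroid markers 7 of 7 were higher in replicate 2, as Tmsb4x was, and the part of either cell type in its level was not tested. In pooled tissue, fewer cells of a type and less RNA per cell cannot be told apart.

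Of the profilins, Pfn1 was the main form and Pfn2 the variable one. Pfn1, the widely expressed profilin (chromosome 11, 70651850 to 70654644, minus strand), was at 1475 and 1374 TPM, or 1425 ± 71.1 (SD, n = 2). Pfn2, the profilin known as enriched in brain (chromosome 3, 57841895 to 57848079, minus strand), was at 372 and 167 TPM from 14386 and 6382 counts. It averaged 269 ± 145 TPM (SD, n = 2), and it was 2.23 times as high in replicate 1. Pfn1 exceeded Pfn2 by 3.96 and 8.25 times, so the lead of Pfn1 held in both libraries and its size did not. The coding sequences of this pair are 62.0% identical.

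Cfl1 was by far the highest of the severing factors. Cfl1, the non-muscle cofilin (chromosome 19, 5490455 to 5495201, plus strand), was at 2020 and 2543 TPM from 47430 and 59169 counts, or 2282 ± 369.6 (SD, n = 2). Dstn, which encodes destrin, also called actin-depolymerizing factor (chromosome 2, 143915320 to 143943324, plus strand), was at 318.5 and 147 TPM from 12916 and 5891 counts. Cfl2, known as the muscle cofilin (chromosome 12, 54858809 to 54862877, minus strand), was at 129 and 57.3 TPM from 8173 and 3608 counts. Cfl1 was thus lower in replicate 1 than in replicate 2, and Dstn and Cfl2 were higher in replicate 1. The ratio of Cfl1 to Dstn was 6.34 and 17.3, and that of Cfl1 to Cfl2 was 15.7 and 44.4. Cfl1 carried 81.9% and 92.6% of the TPM of these 3 genes. Their summed TPM over summed actin TPM was 0.352 and 0.398, and summed profilin TPM over summed actin TPM was 0.263 and 0.223.

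**Figure D2:**
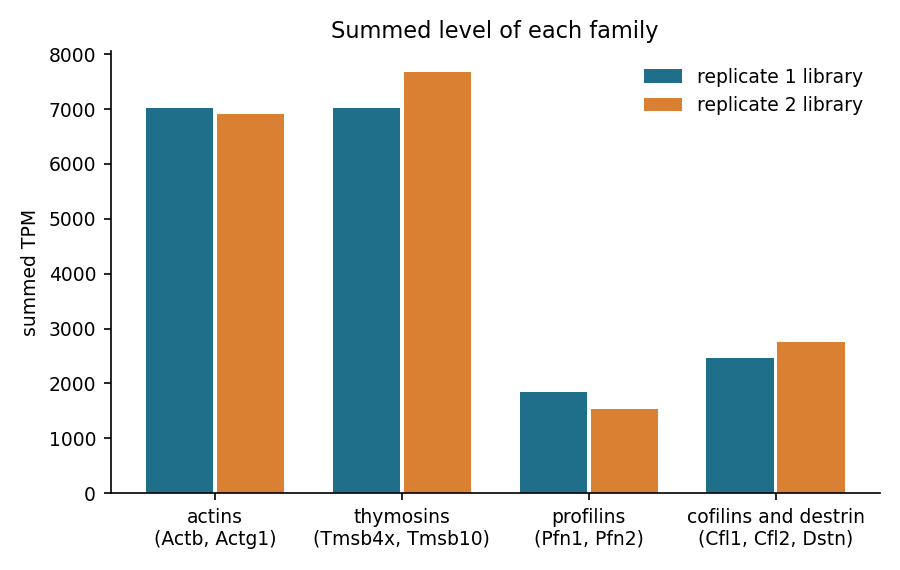
Summed TPM of each family in the replicate 1 and replicate 2 libraries (bars, axis from 0). Actins are at 7016 and 6901, thymosins at 7018 and 7678, profilins at 1847 and 1541, and cofilins with destrin at 2467 and 2747.

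Cap1, the widely expressed cyclase-associated protein (chromosome 4, 122859047 to 122886056, minus strand), was the lowest of the 10 genes in each library. The next lowest, Cfl2, was at 129 and 57.3 TPM. Cap1 was at 18.3 and 31.99 TPM from 1047 and 1741 counts, or 25.2 ± 9.67 (SD, n = 2). Its paralogue Cap2 was at 16.7 and 0.06 TPM from 1113 and 3 counts. Cap1 and Cap2 were at like levels in replicate 1, with a count ratio of 0.941 (95% counting interval 0.864 to 1.02). In replicate 2 the count ratio was 580.3 (198 to 2817). The mean of Cap2, 8.39 TPM, lay under the 10 TPM from which shares of differing genes are counted below.

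For each gene, log2(TPM + 1) in replicate 2 was subtracted from that in replicate 1, and a difference of 1 or more in size was counted as 2-fold. Among the 10 genes 3 passed that mark, against 51.3% of the 7680 gene rows that averaged 10 TPM or more. The 3 were Pfn2 at 1.15, Cfl2 at 1.15 and Dstn at 1.11, all higher in replicate 1. Of the 7680 genes, 24.7% were that much higher in replicate 1 and 26.6% in replicate 2. At a lower mark of 0.5, Cap1 joined them, which made 4 of 10 against 71.2%. The median difference over the 10 genes was 0.04 and the median size 0.28, against -0.02 and 1.04 over the 7680 genes.

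That share depended on level, so the genes are better read beside genes of like abundance. Among the 139 genes averaging 1000 TPM or more 0.0% passed the 2-fold mark, as did 0 of the 6 genes here that were so abundant. Their differences were 0.07 for Actb, -0.07 for Actg1, -0.22 for Tmsb4x, 0.02 for Tmsb10, 0.10 for Pfn1 and -0.33 for Cfl1, and the median size at this level was 0.18. Cfl1 lay just above the upper quartile of 0.32. At a mean TPM from 200 to 500, 14.7% of 524 genes differed 2-fold and 6.87% were higher in replicate 1, and both Pfn2 and Dstn lay there. At 50 to 200, where Cfl2 lay, 37.5% of 2179 genes differed 2-fold and 19.8% were higher in replicate 1. Cap1, at -0.77, lay under the 2-fold mark in a range, 20 to 50, where 56.1% of 2549 genes passed it. With 4 genes below 1000 TPM, nothing particular to these genes can be read from those shares.

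**Figure D3:**
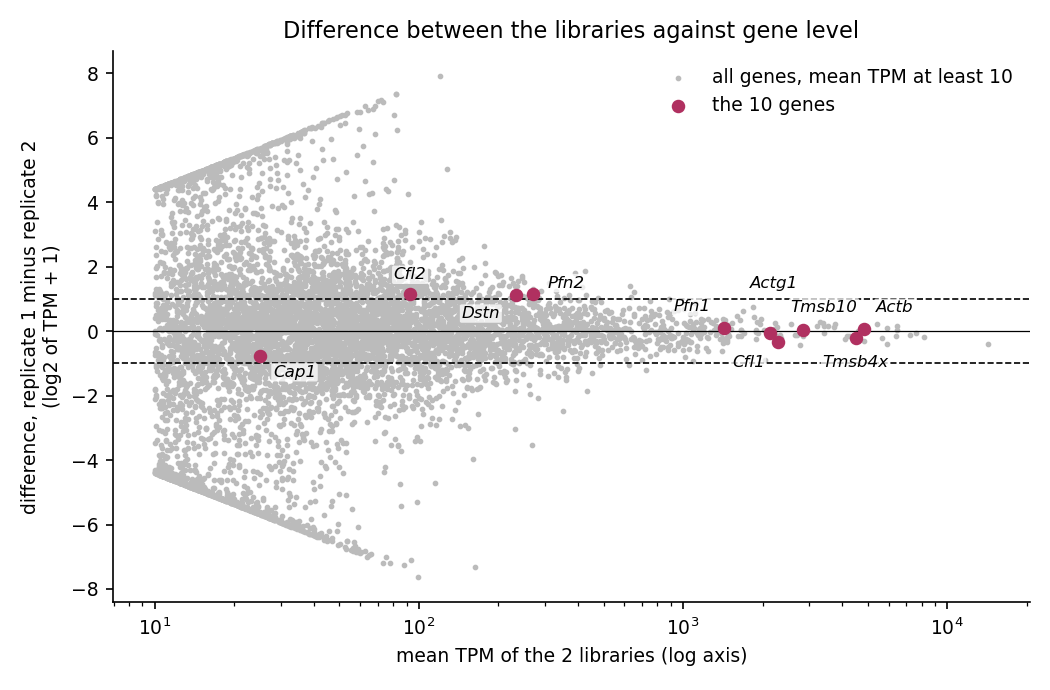
Difference between the libraries (replicate 1 minus replicate 2, log2 of TPM + 1) against mean TPM on a log axis, for all named genes averaging 10 TPM or more (grey) and the 10 genes (red). Dashed lines mark 2-fold, and only Pfn2, Dstn and Cfl2 of the 10 lie beyond them.

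Pfn2, Dstn and Cfl2 were compared with markers of the main cell types, since all 3 were higher in replicate 1. Young neuron markers, detected in both libraries for 6 of 6 genes, summed to 918 and 885 TPM, and 3 of the 6 were higher in replicate 1. Neural progenitor markers, also 6 of 6, summed to 1334 and 2496 TPM, most of it from Vim and Fabp7. Vim, Fabp7, Hes5 and Nes were lower in replicate 1, whereas Pax6 was at 85.55 and 30.1 TPM and Sox2 at 21.75 and 18.95 TPM. Mesenchyme and pericyte markers, 4 of 6, summed to 452 and 315 TPM, and endothelial markers, 4 of 6, to 138 and 107 TPM. Of these lists 3 of 6 mesenchyme and pericyte markers and 4 of 6 endothelial markers were higher in replicate 1. In none of these 4 lists did all markers move the same way, but sizes were uneven. Dcn was at 54.8 and 0.03 TPM, Pdgfrb at 14.6 and 0.09 TPM, Pecam1 at 19.7 and 0.02 TPM and Tek at 8.54 and 0.98 TPM. The 3 mesenchyme and pericyte and 2 endothelial markers higher in replicate 2 differed less, at most by -0.44 on the log2 scale, for Col3a1. The telencephalic markers, a list by region, were higher in replicate 1 for 5 of 6 genes and in replicate 2 for 1. These sizes ranged from Otx2 at 86.3 and 23.6 TPM to Lhx2 at 47.0 and 42.1 TPM. Of the 5 averaging 10 TPM or more, 2 were 2-fold higher in replicate 1 and 0 in replicate 2, beside 24.7% and 26.6% of all such genes. The share of all genes higher in replicate 1 by any amount was not counted. The part of any of these cell types, or of region, in the 3 genes was not tested. Among the mesenchyme markers Lum was at 169 and 62.65 TPM, whereas Col1a1 was at 66.1 and 70.3 TPM.

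The deposited tables also give an interval for each TPM. On either side of the middle it reached 0.454% to 6.72% of the deposited posterior mean. The intervals of the libraries were apart for 9 of the 10 genes, Tmsb10 being the exception. This was not counted over all genes, so nothing particular to these genes can be read from it. For Dstn the intervals ran from 306 to 316 and from 139 to 147 TPM. For Actb they ran from 4790 to 4833 and from 4570 to 4613 TPM. These intervals are centred on the posterior mean, which was about 98% of the TPM for 9 genes, and do not cover the spread between libraries.

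Most genes were read almost wholly from 1 transcript. The tables list 42 transcripts for the 10 genes, and the leading transcript was the same in both libraries for all 10. Cfl1, Cfl2 and Dstn have 1 listed transcript each. In 5 of the other 7 genes the leading transcript held over 90% in both libraries, such as Pfn2-201 with 99.96% and 99.95% of the gene's TPM and Tmsb10-203 with 98.6% and 97.7%. In the GENCODE M21 annotation the 3′ untranslated region of Cfl2-201 has 2308 bases, against 349 bases in Cfl1-201 and 1088 bases in Dstn-201. That of Pfn2-201 is not compared, since M21 gives this transcript another length than the 1827 bases quantified.

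Actg1 and Cap1 were the exceptions. Actg1-202, with 6 exons, held 62.7% and 67.6%, and Actg1-204, with 5 exons, 37.1% and 32.2%. Both encode 1125 bases before the stop codon, but Actg1-202 has a 5′ untranslated region of 124 bases and Actg1-204 has none annotated. Actg1-202 averaged 65.2 ± 3.49% (SD, n = 2), so its lead over Actg1-204 was larger than the spread between the libraries. Their 3′ untranslated regions have 700 and 699 bases, so by length these forms differ almost wholly at the 5′ end. The deposited posterior SD of the Actg1-202 count was 870 and 887, against 36.3 and 38.0 for the gene. How reads were divided between these forms was not tested. Of Cap1, Cap1-201 held 71.9% and 76.5%, Cap1-202 held 28.1% and 8.07%, and Cap1-203 held 0 and 10.7%. These 3 have the same 1422 coding bases by length and differ in the length of the 5′ untranslated region, at 108, 225 and 256 bases. Cap1-202 had 304 and 151 counts with posterior SDs of 81.6 and 57.9, and its deposited intervals overlapped, at 2.92 to 8.12 and 1.09 to 4.87 TPM. Those of Cap1-203 were apart, reaching 0.873 TPM in replicate 1 and starting at 1.17 TPM in replicate 2. How reads were divided among these 3 forms was not tested. Minor forms of abundant genes also differed between the libraries. Pfn1-204, annotated as subject to nonsense-mediated decay, had 28.9 and 616 counts, which is 0.14% and 3.23% of the TPM of Pfn1. Tmsb4x-203 had 7.36 and 1074 counts, or 0.01% and 1.67%.

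**Figure D4:**
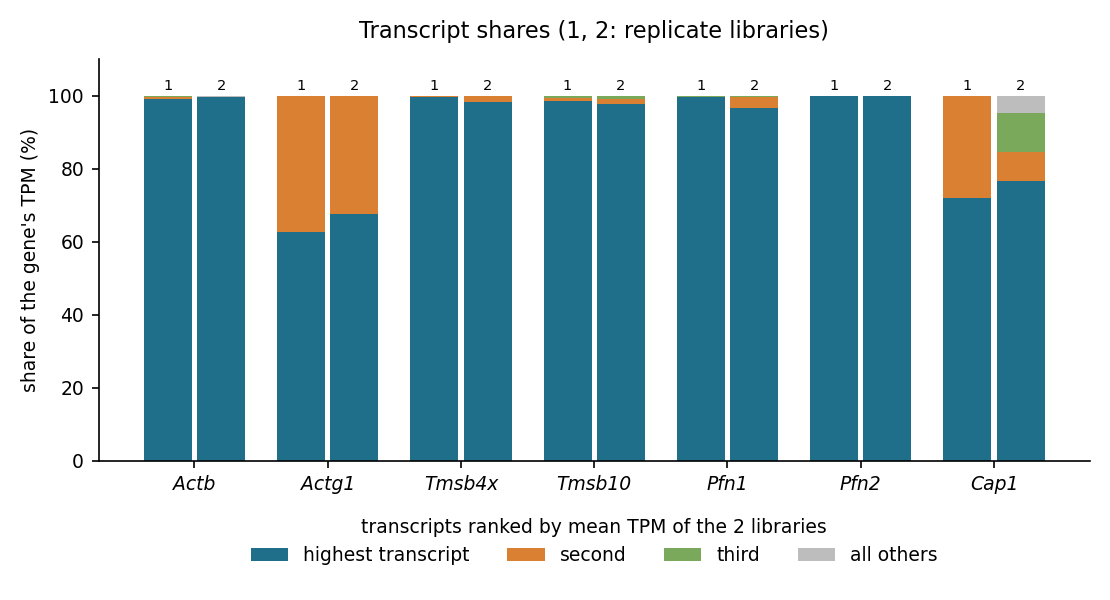
Percent of each gene's TPM that falls to its transcripts, stacked in the order of their mean TPM, in the replicate 1 (1) and replicate 2 (2) libraries, for the 7 genes with several listed transcripts. Actg1 is divided between its leading transcripts in both libraries, and Cap1-203 appears in replicate 2.

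Near-identical copies were assigned few counts. Each leading transcript was aligned on the same strand to all M21 transcripts, and only genes with a row in the deposited tables were kept. Of these, 11 annotated pseudogenes had at least 200 bases at 90% identity or more with Actb, Actg1 or Cfl1. No pseudogene so kept had with the other 7 genes. The 11 held 1792 and 848 counts, and 3 of them had 0 in both libraries. Gm12715, 99.6% identical to Actg1 over 1128 bases, was at 21.5 and 22.9 TPM, and all 7 copies of Actg1 together held 0.785% and 0.731% of its counts. Gm15725, 92.1% identical to Actb over 1128 bases, was at 48.5 and 5.75 TPM. Gm9844, annotated as protein-coding and 99.1% identical to Tmsb10 over 466 bases, was at 20.7 and 15.4 TPM. How reads were divided between such copies and their parent genes is uncertain. The expected counts of 5 genes, namely Tmsb4x, Pfn1, Pfn2, Cfl2 and Dstn, were whole numbers within 0.005 in both libraries, and those of the other 5 were not. Of genes that overlap in position, Ppt1 shares 129 bases with Cap1 on the opposite strand and was at 70.9 and 42.1 TPM, and Snx32, opposite Cfl1, had 0 counts in both. The use of strand in counting is not given in the sources used here, so reads in those 129 bases may not be separable.

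The regions around the starts of these genes were compared with those of all genes. RefSeq promoter windows of GRCm38.p6, 250 bases before to 50 after each start, were at hand for 9 of the 10 genes in 11 windows. Actb had no window, so its promoter was not searched. Their GC content was from 52.7% to 77.7%, against a median of 52.7% over 32851 windows. GGGCGG, searched on both strands, was found in 10 of the 11 windows, those of 8 genes, and in 35.7% of all windows. TATAAA on either strand was found in 0 of the 11 windows and in 13.6% of all windows. The CArG box, the recognition site of serum response factor, reads alike on both strands and was found in 1.63% of all windows and in 1 of the 11, that of Actg1. A match describes letters, and no match says only that they are not in this window. The 250 bases before the start of Actg1 (chr11:120348496-120348745, minus strand) are shown with the CArG box in capitals. It begins 90 bases before the start.
Actg1: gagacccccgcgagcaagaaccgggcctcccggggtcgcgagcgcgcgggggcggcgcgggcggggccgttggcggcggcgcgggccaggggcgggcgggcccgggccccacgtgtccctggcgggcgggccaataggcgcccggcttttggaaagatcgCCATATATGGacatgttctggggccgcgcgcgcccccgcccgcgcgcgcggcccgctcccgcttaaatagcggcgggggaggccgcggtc

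The other genes of the actin pathway were taken from 11 lists, of which 120 genes were matched. Of these, 67 were detected in both libraries (55.8%), 10 in replicate 1 alone, 17 in replicate 2 alone and 26 in neither, against 30.4% of protein-coding genes in both, 6.3% in replicate 1 alone and 9.79% in replicate 2 alone. Of the 73 averaging 10 TPM or more, 15 were 2-fold higher in replicate 1 and 16 were 2-fold higher in replicate 2, or 42.5%, beside the 51.3% of all such genes.

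**Figure D5:**
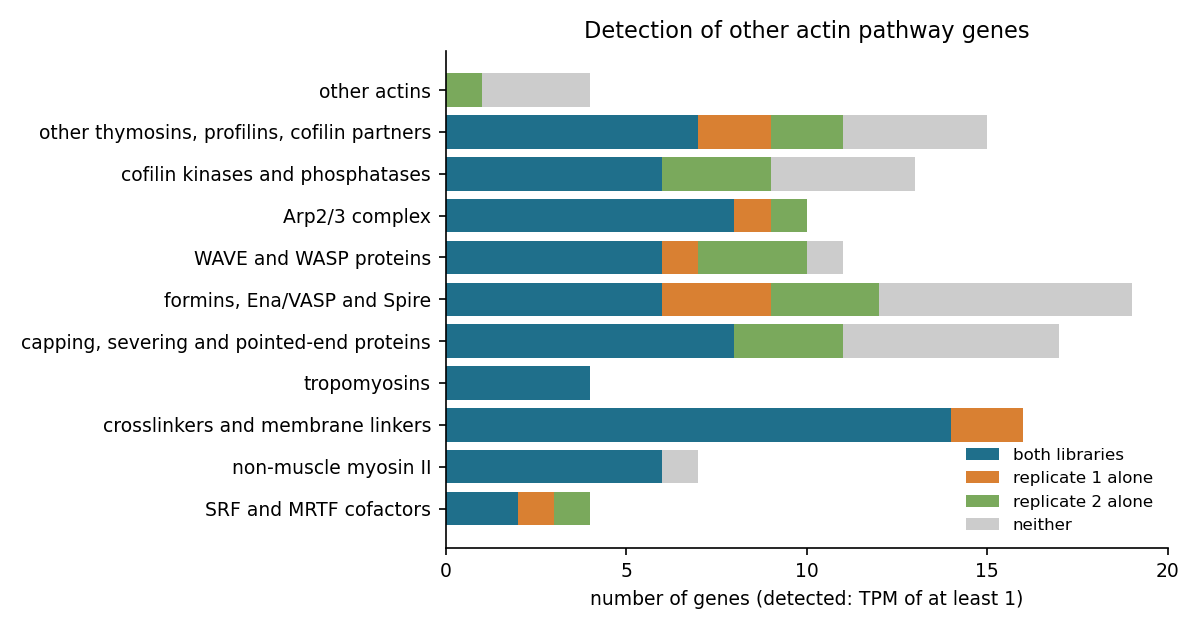
Number of genes in each list of other actin pathway genes that reached 1 TPM in both libraries, in replicate 1 alone, in replicate 2 alone or in neither. All 4 tropomyosins and 14 of 16 crosslinkers and linkers were detected in both, and no other actin was.

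Of 10 genes of the Arp2/3 complex, which starts branched filaments, 8 were detected in both libraries. Actr3b, at 41.3 and 0 TPM, was detected in replicate 1 alone, and Arpc1b, at 0.45 and 1.2 TPM, in replicate 2 alone. Arpc2 was at 225 and 217 TPM and Arpc5 at 184 and 199.5 TPM, while Arpc4 was at 117 and 261 TPM. Of the WAVE and WASP proteins that switch the complex on, 6 of 11 were detected in both, led by Brk1 at 218 and 240 TPM, with Wasf2 at 59.1 and 142 TPM and Wasl at 87.2 and 23.9 TPM. Formins, Ena/VASP proteins and Spire, which build unbranched filaments with profilin-bound actin, were detected in both for 6 of 19. Their highest members were Evl at 43.7 and 15.8 TPM, Fmnl2 at 21.7 and 31.1 TPM and Enah at 26.5 and 9.13 TPM.

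Regulators of cofilin were low beside Cfl1. Of 13 kinases and phosphatases matched, 6 were detected in both libraries and 3 in replicate 2 alone. Of the LIM kinases, which switch cofilin off, Limk2 was at 21.4 and 17.7 TPM and Limk1 had 0 counts in both libraries. Pak3, an upstream kinase, was at 12.1 and 155 TPM, and in counts at 2180 and 6199, a smaller gap. Pak2 was at 26.1 and 57.9 TPM, and Ssh2, a phosphatase that switches cofilin on, at 31.2 and 8.83 TPM. Of 15 other thymosins, profilins and partners of cofilin, 7 were detected in both libraries. Coro1c and Coro1b, coronins that work with cofilin at filaments, were at 131 and 109.5 TPM and at 108 and 77.1 TPM. Twf1, a twinfilin that binds monomers, was at 77.4 and 94.7 TPM. Pfn3, Pfn4, Gmfg and Tmsb15a had 0 counts in both. Other thymosins of the Tmsb15 group were seen mostly in a single library, with Tmsb15l at 100.2 and 0.20 TPM, Tmsb15b2 at 93.7 and 1.35 TPM and Tmsb15b1 at 0 and 33.5 TPM. How reads were divided among them was not tested.

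Filament-capping and filament-binding genes filled much of the range between Pfn1 and Cfl2. Of 17 genes for capping, severing and pointed-end proteins 8 were detected in both, with the capping protein subunits Capza2 at 157 and 196 TPM, Capzb at 158 and 169 TPM and Capza1 at 101 and 201 TPM. The tropomyosins, which coat filaments and limit access of cofilin, were detected in both for 4 of 4. Tpm1 was at 448 and 238 TPM, Tpm3 at 279 and 400.03 TPM, and Tpm4 at 159 and 287 TPM. No tropomyosin differed 2-fold. Tpm1, Tpm3 and Tpm4 averaged 200 to 500 TPM, where 14.7% of genes differed so. Tpm2 averaged 20 to 50 TPM, where 56.1% did. Among 16 crosslinkers and membrane linkers 14 were detected in both, led by Marcksl1 at 733 and 673.5 TPM, Dbn1 at 262 and 346 TPM and Marcks at 286 and 263 TPM. Among 7 genes of non-muscle myosin II, 6 reached 1 TPM in each library, with Myl6 at 565 and 764 TPM, Myl12a at 407 and 530.05 TPM and Myl12b at 417 and 436 TPM. Of the 4 matched genes of serum response factor and its cofactors 2 were detected in both, Mrtfa at 15.4 and 34.7 TPM and Mrtfb at 1.34 and 2.77 TPM. Mrtfa had 1457 and 1040 counts, so its direction was the other way in counts.

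Outside the pathway, the protein-coding gene nearest to Actb over the 2 libraries was H2afz, a histone variant, at 4597 and 4582 TPM. The nearest to Tmsb4x was the embryonic globin gene Hba-x, at 4019 and 4454 TPM, and the nearest to Tmsb10 was mt-Cytb, at 2833 and 2807 TPM. Nearness is the distance in log2(TPM + 1) over 2 libraries, at 0.11, 0.13 and 0.02, and describes level alone.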

How the data were processed

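For each library the authors deposited values per gene and per transcript. Per the file headers these are expected counts, which are estimated reads and need not be whole, TPM as a point estimate and a posterior mean, and the percent of a gene's TPM per transcript. The deposited interval limits and posterior SDs were entered as a score. Text deposited with the tables names mm10 and annotation release M4, with aligner and quantifier not given in the sources used here. Symbols, classes and coordinates came by gene ID from GENCODE M21, also mm10, which matched 98.0% of 43346 gene IDs. Numbered and spike-in rows were left out. Copies were sought with BLAST 2.17.0.

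The genes, lists and thresholds were chosen with earlier results of these data known. All 10 genes are named, and from each pathway list the 3 highest detected in both libraries (or the highest). The other actins, Cap2, 1 nearest gene for each of the 3 highest genes, and pseudogene copies with a mean TPM of at least 10 are also named, and further genes were chosen after their values were seen. Alternatives were another pseudocount, filter, TPM estimate and scaling, with factors from edgeR 4.0.16 and DESeq2 1.42.0. The count of 2-fold genes was tested on simulated data that held counting error alone. That checks the calculation and does not cover the spread between libraries made from so little RNA. The changes put into the simulated data lay well past the 2-fold mark. The simulation thus does not cover values near that mark, such as those of Pfn2, Cfl2 and Dstn. Intervals and floors (3 counts) cover counting error only, since no molecular identifiers separate PCR copies from molecules.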

Additional observations from a re-analysis of the deposited data

How the results depend on the processing

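Pfn2, Dstn and Cfl2 stayed at least 2-fold higher in replicate 1 under all 7 alternatives tried for the difference (pseudocounts of 0.1 and 10, 4 other scalings, posterior mean TPM), with values from 1.04 to 1.22. The direction of each of the 10 genes was also kept in all 7, although those of Actb, Actg1 and Tmsb10 were as small as 0.07, -0.02 and 0.02. With a threshold of 0.5, Cap1 was added, which made 4 genes. The share of all genes that differed 2-fold was 16.1% with no filter and 19.5% at a mean TPM of at least 100, and it stayed within 1.5 times of 51.3% under the other alternatives. Over gene rows only, mean summed TPM was 7524 for actins, 7941 for thymosins and 2817 for cofilins with destrin, since the spike-ins leave the total, and by posterior mean TPM the actins were at 6792. In expected counts, which are not per length, the mean log2 ratio was 1.16 for Tmsb4x over Tmsb10, against 0.66 in TPM, 1.33 for Pfn1 over Pfn2, against 2.52, and 3.29 for Cfl1 over Cfl2, against 4.72. Adding the pseudogene copies moved no family sum by more than the spread between the libraries. No paired analysis was possible because there is one group. With 2 libraries, leaving out 1 gives the other's value and no difference. Each of the 10 genes had over 1000 counts in both libraries.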

Other observations

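Of the copies of Actb, Gm15725 differed most between the libraries, with 1076 and 126 expected counts, while Actb differed by 0.07 on the log2 scale. Lrrc58, which encodes a leucine-rich repeat protein, holds a stretch of 1347 bases that is 90.6% identical to Actb and had 5334 and 2897 counts. Both Gm15725 and Lrrc58 lie on chromosome 16 and both were higher in replicate 1. Whether reads were shared between them was not tested. Gm12715, the copy most like Actg1, had 495 and 522 counts, close to even, as Actg1 was. Gm8399, 98.6% identical to Actg1 over 1125 bases, had 142 and 100.03 counts, and Gm6180, 98.8% identical to Cfl1 over 498 bases, had 54.3 and 77.25 counts.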
